A study of Mus musculus with 48 samples.

Results

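Among 48 libraries of mouse cerebral cortex, 3 male libraries stood highest on the second principal component of log2 CPM (counts scaled to the same library total). They are Q140 replicate M1, Q140 x Msh3-/- replicate M4 and Msh3+/- replicate M2, called Q140 M1, Q140 x Msh3-/- M4 and Msh3+/- M2 below, each for the library so labelled. They were chosen on measured values, so every difference between them and the other 21 male libraries is given as a description, without a test. The other males comprise 4 mice each of WT, Q140 x Msh3+/- and Msh3-/- and 3 each of Q140, Q140 x Msh3-/- and Msh3+/-. The 24 female libraries took no part in that comparison and are given as a range beside it.

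All mice were 6 months old and are listed under a C57BL/6 background. Q140 is a knock-in allele of the huntingtin gene Htt with an expanded CAG repeat, carried in heterozygous form per the labels, and models Huntington's disease. Msh3+/- and Msh3-/- mice carry 1 or 2 altered alleles of Msh3, which encodes a DNA mismatch repair protein, and the Q140 x Msh3-/- group carries both changes. Depth was 50.6 M counts in Q140 M1, 36.9 M in Q140 x Msh3-/- M4 and 41.9 M in Msh3+/- M2, within the 35.9 M to 64.5 M of the other 45 libraries. Msh3 reads were not lost with the altered alleles but were higher with each one: 24.7 CPM in Q140 M1 beside 21.8, 23.2 and 24.9 in the other Q140 males, 77.4 in Msh3+/- M2 beside 62.4, 64.7 and 71.0 in its group, and 125 in Q140 x Msh3-/- M4 beside 106, 111 and 113. The Msh3 level of Q140 M1 thus lay within that of the other males of its group. Those of Msh3+/- M2 and Q140 x Msh3-/- M4 lay above all others of their groups, females included (at most 72.5 and 119.5 CPM). All 3 followed the number of altered Msh3 alleles. The Msh3 level does not report on the Q140 allele and shows no loss of the RNA.

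Many promoters of vertebrate genes are transcribed in both directions. The strand pointing away from the coding gene gives long noncoding RNAs (lncRNAs), known as divergent or promoter upstream transcripts, and other lncRNAs start inside the coding gene and run antisense to it. Most such RNAs are short-lived in the nucleus: early polyadenylation sites end them, and the nuclear exosome, an RNA-degrading complex, removes them with the help of adaptor proteins. Their level in a tissue therefore depends on both transcription and decay, which RNA-seq of steady-state RNA does not separate.

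The promoter windows of a few leading RNAs are shown because these RNAs start beside, or across from, the start of a coding gene. Each window runs from 250 bases before to 50 bases after the start in RefSeq (GRCm38.p6), is written 5′ to 3′ on the strand of the named RNA, and has the CG dinucleotides, which cluster in CpG-island promoters, in capitals. Fam120aos (chr13:48967862-48968161, plus strand) and the coding gene Fam120a (chr13:48968011-48968310, minus strand) are transcribed away from each other, and their windows share 151 bases. The window of 2810013P06Rik (chr8:123042325-123042624, plus strand), a bidirectional-promoter lncRNA, lies beside the start of Ankrd11, a chromatin regulator gene. The window of Iqck (chr7:118855502-118855801, plus strand) lies at the start of Knop1, and that of Kcnq1ot1 (chr7:143296498-143296797, minus strand), the long antisense RNA of an imprinted domain, lies inside Kcnq1.
Fam120aos: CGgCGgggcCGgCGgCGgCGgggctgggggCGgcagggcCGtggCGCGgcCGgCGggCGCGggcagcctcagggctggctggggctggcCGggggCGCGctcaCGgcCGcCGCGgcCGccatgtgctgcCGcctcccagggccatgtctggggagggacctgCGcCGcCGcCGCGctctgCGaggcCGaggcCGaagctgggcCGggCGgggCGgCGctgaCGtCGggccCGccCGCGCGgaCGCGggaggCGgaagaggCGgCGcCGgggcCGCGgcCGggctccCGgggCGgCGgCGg
Fam120a: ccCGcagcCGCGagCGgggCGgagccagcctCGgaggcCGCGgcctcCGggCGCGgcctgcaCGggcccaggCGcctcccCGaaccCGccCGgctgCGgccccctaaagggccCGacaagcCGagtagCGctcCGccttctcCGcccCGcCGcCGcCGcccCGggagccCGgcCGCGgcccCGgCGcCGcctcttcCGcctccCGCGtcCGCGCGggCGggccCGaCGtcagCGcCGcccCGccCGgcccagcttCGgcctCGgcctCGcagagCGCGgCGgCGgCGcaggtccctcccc
2810013P06Rik: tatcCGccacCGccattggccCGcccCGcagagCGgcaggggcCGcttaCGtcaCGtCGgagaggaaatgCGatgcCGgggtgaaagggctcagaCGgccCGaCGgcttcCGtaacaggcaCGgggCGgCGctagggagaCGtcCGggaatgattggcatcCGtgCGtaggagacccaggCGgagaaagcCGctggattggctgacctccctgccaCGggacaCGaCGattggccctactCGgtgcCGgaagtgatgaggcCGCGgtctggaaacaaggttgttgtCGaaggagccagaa
Iqck: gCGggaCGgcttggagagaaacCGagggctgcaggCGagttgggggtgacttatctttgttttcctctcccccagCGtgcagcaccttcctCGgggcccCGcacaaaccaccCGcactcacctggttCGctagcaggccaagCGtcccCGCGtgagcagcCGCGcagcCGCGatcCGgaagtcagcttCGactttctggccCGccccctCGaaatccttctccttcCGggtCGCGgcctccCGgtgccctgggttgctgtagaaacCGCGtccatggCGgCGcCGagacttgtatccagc
Kcnq1ot1: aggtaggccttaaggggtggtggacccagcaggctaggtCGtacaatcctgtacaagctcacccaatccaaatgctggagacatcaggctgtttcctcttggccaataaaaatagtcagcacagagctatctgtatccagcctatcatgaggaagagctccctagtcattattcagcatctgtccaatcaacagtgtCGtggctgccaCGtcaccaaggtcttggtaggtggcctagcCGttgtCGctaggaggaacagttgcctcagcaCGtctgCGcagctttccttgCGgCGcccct
The motif searched was CG, which reads the same on both strands. It occurred 54 times in the Fam120aos window, 54 in that of Fam120a, 32 in that of 2810013P06Rik, 29 in that of Iqck and 9 in that of Kcnq1ot1. Of all 32851 RefSeq windows of this length, 34.6% held 15 or more, with a median of 7. Windows at coding starts hold more: of the 11478 of 15121 kept protein-coding genes with a window, 66.3% held 15 or more, with a median of 20. That match is also incomplete, and no difference is read from it. Only 367 of the 737 lncRNAs described below matched a window by symbol, so a comparison of CG content over the class is void and is not given.

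On the second component, which held 6.69% of the variance over 48 libraries, Q140 M1 scored 36.5, Q140 x Msh3-/- M4 35.04 and Msh3+/- M2 32.4. The next library was the female WT F2 at 15.7, and the other males ran from -18.2 to 1.66. The 3 libraries were also the highest on the first component (11.7% of the variance), which separated the sexes: they scored 26.9, 24.1 and 25.1 in the same order, beside 8.22 to 16.9 for the other males. In the 24 males alone they stood apart on the first component (13.3% of the variance), at 39.99, 41.7 and 37.7 against -14.8 to 3.86, and not on the second.

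**Figure D1:**
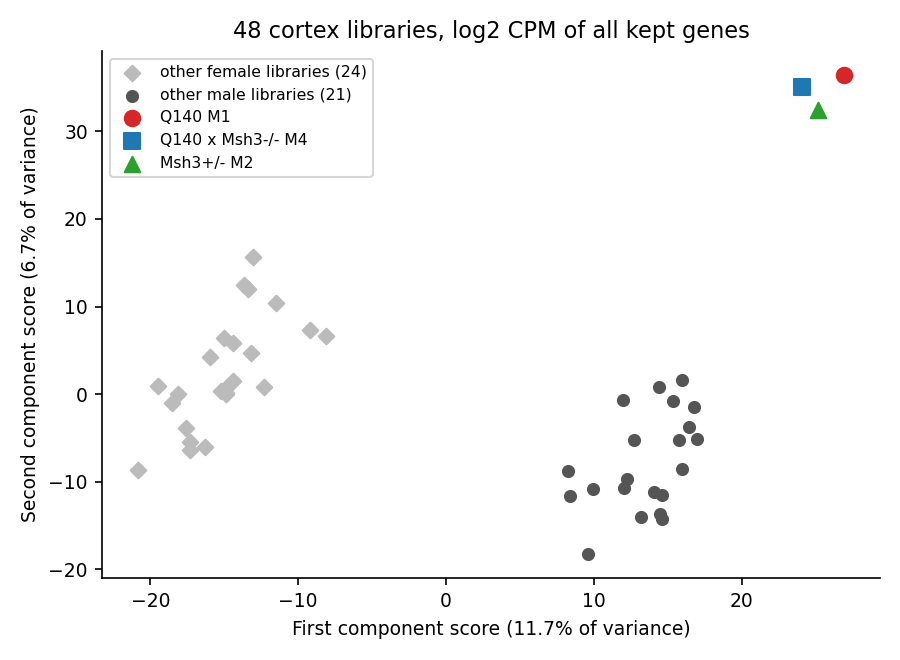
Scores of the 48 libraries on the first (x axis) and second (y axis) principal components of log2 CPM, with males as dark circles, females as pale diamonds and the 3 libraries in colour. The 3 libraries lie at 32.4 to 36.5 on the second component, and no other library is above 15.7.

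The genes carrying the separation were mostly noncoding. With protein-coding genes alone (15128 genes), none of the first 10 components put the 3 libraries above or below all others. With the 2866 long noncoding genes alone, the first component (13.7% of the variance) did: 35.8, 31.1 and 33.3 in Q140 M1, Q140 x Msh3-/- M4 and Msh3+/- M2, against -12.4 to 6.65 in the other 45.

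A deviation here is a library's log2 CPM minus the median of the 21 other males. In 633 of 20010 kept genes (3.16%) all 3 libraries lay above all 21 other males, and in 55 (0.275%) below all of them. These counts come from the contrast that chose the libraries, so the classes within them are read only as a description. Of the 633 genes, 503 were also above all 24 females. The higher genes differed by more than the lower ones: the deviation of the library nearest to 0 had a median of 0.89 over the 633 genes and of -0.13 over the 55. Among 15241 genes with a mean of at least 1 CPM, 136 (0.892%) were at least 2-fold above the median of the other males in all 3 libraries, 116 of them long noncoding, and 0 were at least 2-fold below. That mean is over all males, the 3 libraries included, so high values in them helped a gene pass. The counts above and below are therefore not on an equal footing.

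Set against the 3 other males of the same genotype, Q140 M1 had 240 genes at least 2-fold above their median, Q140 x Msh3-/- M4 had 203 and Msh3+/- M2 had 216. The 21 other males had 4 to 36 by the same measure. Genes at least 2-fold below numbered 17, 34 and 9 in the 3 libraries, within the 8 to 65 of the other males. The filter on mean CPM over all males applied here too, with the same tilt towards genes high in the 3 libraries.

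The lncRNAs at promoters were the class most often higher. Of the 633 genes, 447 (70.6%) were long noncoding genes, which made up 14.3% of the kept genes. By GENCODE M21 class, all 3 libraries exceeded all 21 other males in 24 of 74 bidirectional promoter lncRNAs (32.4%), 85 of 360 processed transcripts (23.6%), 142 of 679 antisense RNAs (20.9%) and 122 of 695 intergenic lncRNAs (17.6%). The share was lower in TEC genes, the largest long noncoding class, which holds loci still to be experimentally checked (70 of 947, 7.39%), and in sense intronic RNAs (3 of 102, 2.94%). The share was 1.02% in protein-coding genes (154 of 15128) and 0.638% in processed pseudogenes (9 of 1411). It was 0 of 115 in miRNA genes and 0 of 82 in snoRNA genes, classes of small RNAs that mRNA libraries capture poorly.

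Position relative to coding starts sorted the lncRNAs further. A promoter lncRNA is here a long noncoding gene whose annotated start lies within 1 kb of the start of a protein-coding gene on the other strand, a class drawn after the values were seen. Of 737 such genes, 264 (35.8%) were above all 21 other males in all 3 libraries and 0 were below, and 217 were above all 45 other libraries. The median deviation of the class was 0.61 in Q140 M1, 0.45 in Q140 x Msh3-/- M4 and 0.60 in Msh3+/- M2, and -0.12 to 0.14 in the other males. Among the females it was -0.14 to 0.22, with WT F2 the highest. The class took 0.335%, 0.312% and 0.327% of the counts of the 3 libraries, against 0.200% to 0.242% in the other 45. No other library overlapped the 3 in either measure.

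Both orientations were represented. RNAs leading away from the coding gene (head to head) were above all 21 in 145 of 372 cases (39.0%), and RNAs starting inside it and running towards its start in 119 of 365 (32.6%). The difference did not end at the 1 kb limit. With a distance of 1 to 5 kb the share was 31.2% of 93 head-to-head genes, with medians of 0.46, 0.33 and 0.55 in Q140 M1, Q140 x Msh3-/- M4 and Msh3+/- M2, and 23.6% of 174 facing genes, with medians of 0.41, 0.18 and 0.38. With a distance over 5 kb the share was 6.05% of 975 head-to-head genes and 6.09% of 887 facing genes, and the median deviations were 0.10 to 0.19. Promoter lncRNAs with 1 exon held 78 of 161 (48.4%), with median deviations of 1.06, 0.76 and 0.93 in Q140 M1, Q140 x Msh3-/- M4 and Msh3+/- M2, and those with 2 or more exons 186 of 576 (32.3%).

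**Figure D2:**
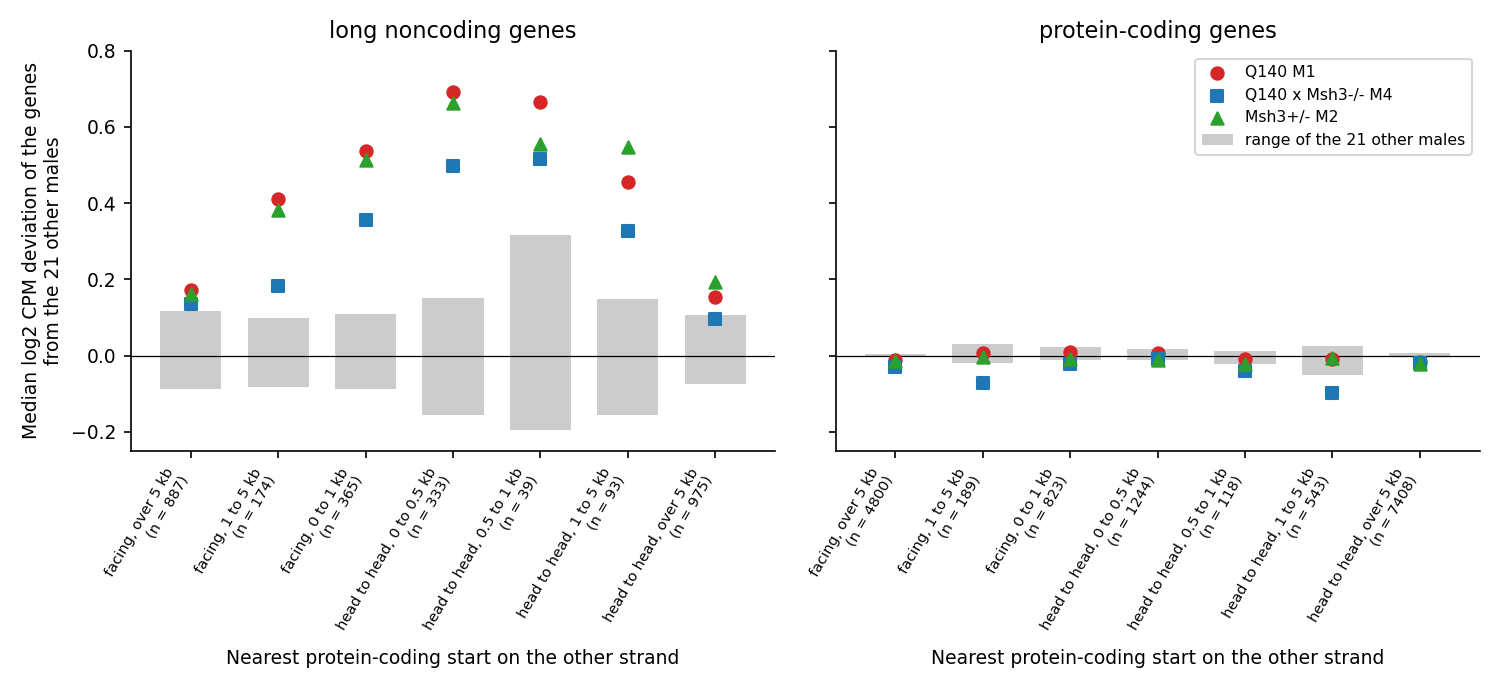
Median deviation in log2 CPM (y axis) of long noncoding genes (left) and protein-coding genes (right), by the distance and orientation of the nearest protein-coding start on the other strand (x axis, with the number of genes). Coloured points are the 3 libraries and bars the range of the 21 other males. Noncoding genes reach 0.50 to 0.69 in the head-to-head bin up to 0.5 kb, while the medians of coding genes lie between -0.10 and 0.01 in every bin.

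The coding neighbours did not share the difference. Of 708 kept coding genes paired with a promoter lncRNA, 5 (0.706%) were above all 21 other males in all 3 libraries, and the median deviations were -0.01, 0.00 and -0.02 in Q140 M1, Q140 x Msh3-/- M4 and Msh3+/- M2. Fam120a, which encodes an RNA-binding protein, was at 165, 184 and 188 CPM in these libraries and at 167 to 191 in the other males, so that Q140 M1 lay just below their range. The share was as large without exon overlap with a gene on the other strand that had reads in the males. The 287 promoter lncRNAs without such an overlap held 110 above all 21 (38.3%), and the 450 with it 154 (34.2%). Overlap with introns was not considered, so the 287 can still lie within a gene on the other strand. Whether the counting used strand is not given in the sources used here, so single antisense genes remain uncertain.

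The leading RNA of all was the promoter lncRNA 1500015A07Rik, a gene model named here because of its value. It was at 29.9 CPM in Q140 M1, 31.2 in Q140 x Msh3-/- M4 and 28.6 in Msh3+/- M2. The other males ran from 2.53 to 4.70 with a median of 3.07, and the females from 2.36 to 4.77. The 3 libraries were close to each other, with a wide gap below them.

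By the rule for named genes, the 14 with the largest smallest deviation held 6 promoter lncRNAs, 3 other noncoding RNAs and 5 coding genes, and all 14 were above all 45 other libraries. N4bp2os (chr5:65760991-65764379, minus strand), which starts inside N4bp2 and runs out through its start, was at 10.2 CPM in Q140 M1, 11.1 in Q140 x Msh3-/- M4 and 11.5 in Msh3+/- M2. The other males lay between 0.992 and 3.04 (median 1.44), and the highest of them was Msh3+/- M1. N4bp2 itself was at 8.68, 10.9 and 11.1 CPM, within the 8.35 to 11.8 of the other males.

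Fam120aos (chr13:48968287-48972031, plus strand, in GENCODE M21, whose start lies downstream of the RefSeq start used for the window above) was at 33.5 CPM in Q140 M1, 34.5 in Q140 x Msh3-/- M4 and 37.5 in Msh3+/- M2, against 6.84 to 12.4 (median 8.42) in the other males. The same-genotype males were at 8.01, 8.12 and 9.15 in Q140, at 7.58, 7.64 and 11.1 in Q140 x Msh3-/- and at 7.20, 12.1 and 12.3 in Msh3+/-. The 3 libraries lay above all of their group mates, which varied among themselves.

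Gt(ROSA)26Sor (chr6:113067428-113077333, minus strand) is the noncoding gene of the Rosa26 locus, widely used for transgenes because it is active in most tissues. Its start lies 32 bases from that of Setd5, on the other strand. It was at 21.8, 32.1 and 26.2 CPM in Q140 M1, Q140 x Msh3-/- M4 and Msh3+/- M2, and at 4.67 to 7.99 in the other males. Setd5 was at 190, 181 and 173 CPM, against 167 to 187, Q140 M1 being just above that range. The remaining promoter lncRNAs named by the rule were H3f3aos, Phf2os1 and Kcnd3os, antisense at the starts of the histone variant gene H3f3a, the histone demethylase gene Phf2 and the potassium channel gene Kcnd3. Their smallest deviations were 1.63, 1.45 and 1.103.

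**Figure D3:**
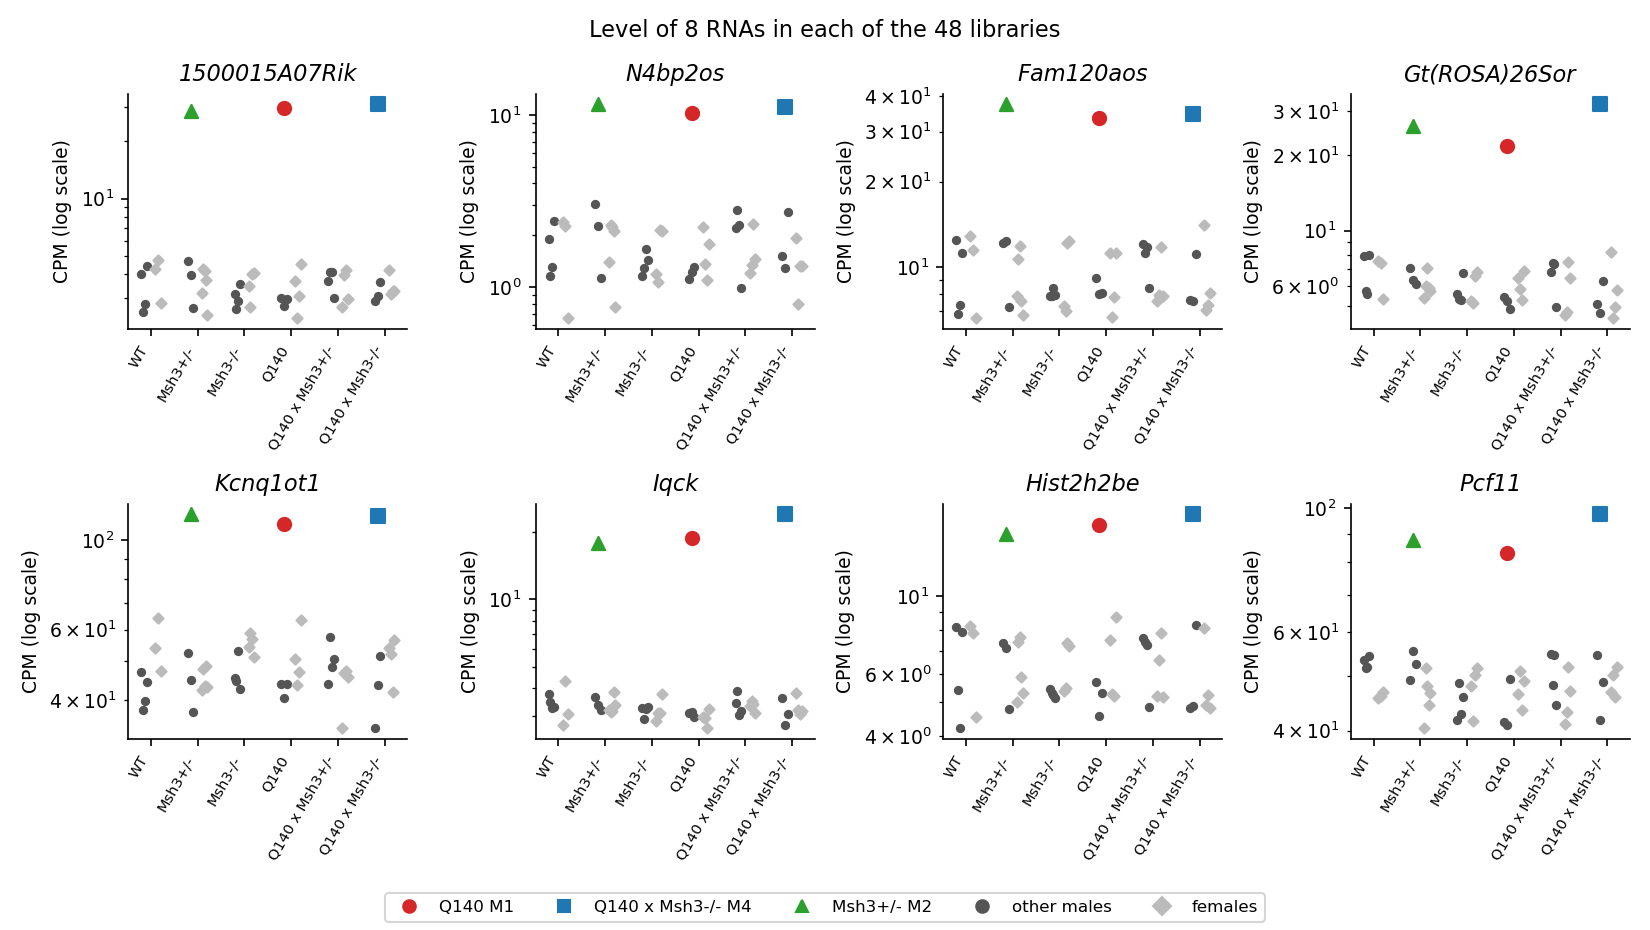
CPM (log axis) of 8 RNAs in each library, by genotype (x axis), with males as dark circles, females as pale diamonds and the 3 libraries in colour. In each panel the 3 libraries lie above all other 45, by the widest margin for 1500015A07Rik at 28.6 to 31.2 against at most 4.77.

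Other noncoding RNAs that lead the list are not promoter lncRNAs by the definition above. Kcnq1ot1 (chr7:143203458-143296549, minus strand), which silences genes of its imprinted domain in cis, was at 110, 115 and 116 CPM in Q140 M1, Q140 x Msh3-/- M4 and Msh3+/- M2, against 34.1 to 57.4 in the other males and 34.2 to 64.1 in the females. Snhg3 and Snhg4, host genes of small nucleolar RNAs, had smallest deviations of 1.33 and 1.36. The abundant nuclear lncRNAs Malat1, Neat1 and Meg3 had deviations of mixed sign. Malat1 deviated by -0.20, 0.35 and 0.13, Neat1 by 0.07, -0.08 and -0.15 and Meg3 by -0.09, -0.07 and 0.06. Of 15 kept members of the list of nuclear-retained and long noncoding RNAs, 1 (Kcnq1ot1, 6.67%) was above all 21 other males. The share was 15.6% of long noncoding genes and 3.16% of all kept genes. With 15 members, no difference is read from this count.

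Of 15128 protein-coding genes, 154 (1.02%) were above all 21 other males in all 3 libraries. Those named here were picked by the rule or from lists, and functions were not tallied over the 154. Iqck, whose start faces that of Knop1 502 bases away, was at 18.8, 24.03 and 17.8 CPM in Q140 M1, Q140 x Msh3-/- M4 and Msh3+/- M2, against 2.75 to 3.91 in the other males. Knop1 was at 20.7, 21.7 and 23.6 CPM, within 20.3 to 24.1. Fgfbp3, which encodes a fibroblast growth factor binding protein, was at 15.8, 23.9 and 23.7 CPM against 3.46 to 8.61, and Rbm12b1, which encodes an RNA-binding protein, at 14.5, 14.99 and 15.7 against 5.33 to 7.74.

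Among histone genes, Hist2h2be, a histone H2B gene, was at 15.9, 17.1 and 15.1 CPM in Q140 M1, Q140 x Msh3-/- M4 and Msh3+/- M2, against 4.21 to 8.30 in the other males. H2afj, a histone H2A variant gene, was at 31.6, 31.8 and 35.02 CPM, against 12.5 to 18.7. Of 9 kept members of the replication-dependent histone list, 3 (Hist2h2be, Hist1h4i and Hist3h2a) were above all 21 (33.3%). Beside this, 3.16% of all kept genes and 1.02% of protein-coding genes were above all 21. The list's median deviations were 0.14, 0.53 and 0.00, of which that of Q140 x Msh3-/- M4 alone lay outside the -0.18 to 0.30 of the other males. Hist1h2bc deviated by -0.04, -0.07 and -0.04 and Hist1h1c by 0.31, 0.53 and -0.02. A wider list of all 28 kept genes with histone symbols, added after the values were seen, held 6 above all 21 (21.4%, beside the same shares). Its medians of 0.25, 0.39 and 0.10 all lay above the -0.09 to 0.09 of the other males. That list also takes in the antisense RNA H3f3aos.

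Genes that end and degrade such RNAs are given by list. Over all kept genes 3.16% were above all 21 other males in all 3 libraries, and over protein-coding genes 1.02%. The list of the nuclear exosome and its adaptors was drawn up after the values were seen. Of its 25 kept genes, 1 (4%) was above all 21, near the share over all kept genes, and 0 were below. That gene was Zfc3h1, which encodes the scaffold linking the exosome's helicase to polyadenylated nuclear RNA: 130 CPM in Q140 M1, 151 in Q140 x Msh3-/- M4 and 144 in Msh3+/- M2, against 79.8 to 113. The exosome subunit gene Exosc3 (5.37, 5.78 and 5.58 CPM against 4.91 to 6.61), the nuclease gene Exosc10 (48.2, 47.0 and 44.0 against 41.3 to 49.2) and the adaptor gene Rbm7 (20.6, 21.4 and 17.6 against 16.3 to 21.1) lay within the range of the other males but for Rbm7 in Q140 x Msh3-/- M4. Median deviations of the exosome list were 0.02, 0.00 and -0.01.

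Of 26 genes of cleavage, polyadenylation and termination, likewise listed after the values were seen, 3 (11.5%) were above all 21 other males, beside 3.16% of all kept genes. In that list 9 had positive deviations in all 3 libraries. The list's medians were 0.03, 0.12 and 0.02 in Q140 M1, Q140 x Msh3-/- M4 and Msh3+/- M2, of which that of Q140 x Msh3-/- M4 lay above the -0.04 to 0.03 of the other males. Pcf11, which encodes a cleavage factor that promotes termination, was at 83.1, 97.5 and 87.9 CPM in Q140 M1, Q140 x Msh3-/- M4 and Msh3+/- M2, against 41.0 to 55.5. Cstf3, a subunit gene of the cleavage stimulation factor, was at 37.1, 41.5 and 36.7 CPM against 21.04 to 27.7, and Scaf4, a regulator of early termination, at 87.9, 79.6 and 83.8 against 58.9 to 68.9. Pcf11 and Cstf3 are known to control their own level through early polyadenylation sites in their introns, and gene counts do not tell short from full-length transcripts. Of 22 members of the spliceosome and RNA processing list, 2 (9.09%) were above all 21: Luc7l3 (341, 354 and 329 CPM against 197 to 247) and Pnisr (543, 570 and 598 against 350 to 435), both linked to splicing. That list's medians were 0.01, 0.12 and 0.15 in the same order, the latter pair above the -0.07 to 0.09 of the other males. The part of these genes in the lncRNA difference was not tested.

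Genes that were lower were fewer and nearer to the other males. The 14 named by the rule were all protein-coding, and only Tacr3 and Nexn of them lay below all 21 other males in all 3 libraries. Tacr3, the receptor of neurokinin B, was at 0.743 CPM in Q140 M1, 0.685 in Q140 x Msh3-/- M4 and 0.824 in Msh3+/- M2, against 0.867 to 1.87. Nexn, an actin-binding protein gene, was at 2.35, 2.22 and 2.14 CPM against 2.46 to 4.43. Xlr3b, an imprinted X-linked gene with close copies, had the largest deviations, -1.96, -1.58 and -0.95, but the other males ran from 0.0396 to 4.37 CPM, which encloses the 3. Kcnab3, a potassium channel subunit gene, was at 157, 128 and 149 CPM against 123 to 224. Deviations of Myo1a, Scn7a, Adgrg2, Rilp, Endou, Slc7a7, Myo5c, Tusc5, Fgf18 and Tpm2 lay between -1.73 and -0.34, and each had at least 1 of the 3 libraries inside the range of the other males.

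No marker list placed all 3 libraries outside the range of the other males on the same side. Over 21 marker lists with 304 kept members in all, 1 member was above all 21 other males in all 3 libraries (Sox11, a transcription factor of young neurons) and 1 below (Ctss, a microglial protease). Of all kept genes, 3.16% were above and 0.275% below, and of protein-coding genes 1.02% and 0.291%. In bulk tissue, fewer cells of a type and less RNA per cell cannot be told apart.

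Some lists had many members on one side of 0 in all 3 libraries. Markers of a cell type vary together, and the same share over all kept genes is not given here. These member counts, also those for microglia below, are therefore a description only. Deep-layer excitatory neuron markers had medians of 0.17, 0.33 and 0.22 in Q140 M1, Q140 x Msh3-/- M4 and Msh3+/- M2, against -0.45 to 0.41, and 12 of 19 were positive in all 3. Fezf2, a transcription factor gene of deep-layer projection neurons, was at 31.7, 35.9 and 27.7 CPM against 19.2 to 37.5, and Bcl11b, another, at 64.5, 77.9 and 64.6 against 45.9 to 74.8. Upper-layer markers had medians of -0.11, -0.18 and -0.12 against -0.15 to 0.12, with 6 of 14 negative in all 3 and Q140 x Msh3-/- M4 below the range.

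Of 17 pan-neuronal genes 0 were above or below all 21, and the medians were -0.04, -0.09 and -0.08 in Q140 M1, Q140 x Msh3-/- M4 and Msh3+/- M2, within -0.15 to 0.05. Rbfox3, which marks neuronal nuclei, was at 485, 445 and 447 CPM against 424 to 512 in the other males. Snap25, a synaptic fusion protein gene, was at 3847, 3813 and 3507 CPM against 3273 to 4281. The oligodendrocyte list was split, with medians of 0.19, 0.15 and -0.14 within -0.41 to 0.43, and its gene Mbp, of the myelin sheath, was at 941, 939 and 801 CPM against 661 to 1177. Oligodendrocyte precursor markers had medians of -0.05, -0.13 and 0.17 against -0.09 to 0.06, so that Q140 x Msh3-/- M4 lay below the range and Msh3+/- M2 above it.

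Astrocyte markers had medians of -0.08, -0.15 and 0.04 in the same order, against -0.09 to 0.08, and Gfap was at 58.8, 65.2 and 54.4 CPM against 46.2 to 114. Microglial markers had medians of -0.13, -0.21 and -0.12 against -0.15 to 0.27, with Q140 x Msh3-/- M4 below the range, and 13 of 18 were negative in all 3 libraries. Ctss was at 44.7, 46.2 and 43.8 CPM against 49.2 to 69.6, while Cx3cr1 was at 34.7, 31.2 and 33.9 against 31.1 to 41.4. Interneuron markers had medians of -0.10 and -0.12 in Q140 M1 and Q140 x Msh3-/- M4, under the -0.07 to 0.08 of the other males, and of -0.04 in Msh3+/- M2, within it. Gad1, the GABA-synthesis enzyme gene, was at 337, 284 and 306 CPM against 300.4 to 408. Markers of choroid plexus did not mark the 3 libraries: Ttr was at 1.70, 1.12 and 2.24 CPM, and at 0.641 to 353 in the other males.

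**Figure D4:**
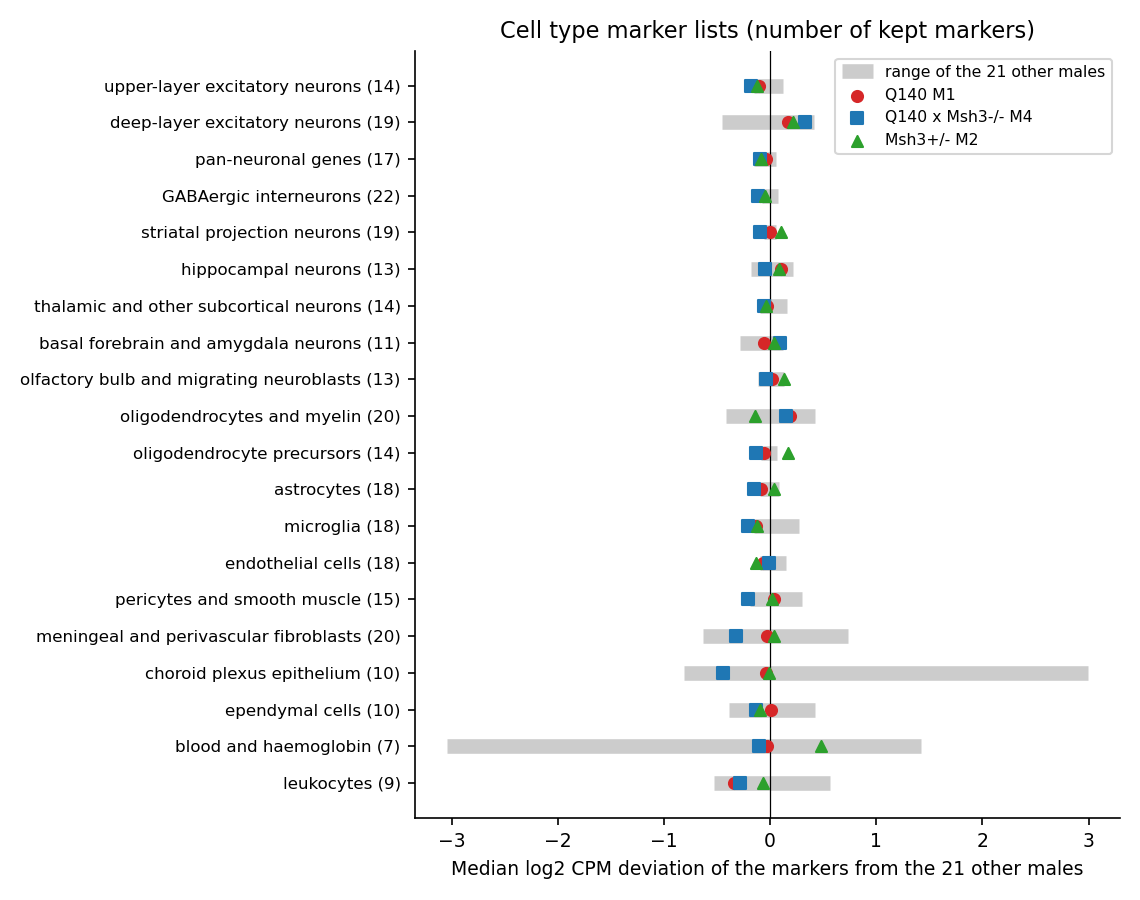
Median deviation in log2 CPM (x axis) of each cell type marker list with at least 5 kept genes (y axis, with their number), with the 3 libraries as coloured points and the range of the 21 other males as grey bars. In no list do all 3 points lie beyond the same end of the bar.

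Over 22 pathway lists with 450 kept members, 6 were above all 21 in all 3 libraries (the 3 histone genes, Kcnq1ot1, Luc7l3 and Pnisr), 0 were below, and 0 lists had all 3 medians outside the range on the same side. Beside these counts, 3.16% of all kept genes and 1.02% of protein-coding genes were above all 21. The shares below were 0.275% and 0.291%. Immediate early genes, which follow neuronal activity, had medians of -0.26, 0.21 and 0.00 in Q140 M1, Q140 x Msh3-/- M4 and Msh3+/- M2, within the -1.17 to 0.63 of the other males. Heat shock genes had medians of -0.15, 0.17 and -0.06, against -0.08 to 0.11, and genes of the unfolded protein response -0.15, 0.25 and 0.04, against -0.14 to 0.08. In both of these lists Q140 M1 lay below the range and Q140 x Msh3-/- M4 above it.

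Q140 x Msh3-/- M4 differed from the other 2 in ways of its own. Genes in the highest quintile of GC content had a median deviation of -0.16 in it and those in the lowest 0.14, a difference of -0.30, while the difference was -0.04 in Q140 M1, 0.02 in Msh3+/- M2 and between -0.18 and 0.15 in the other 45 libraries. Its mitochondrial reads were 6.51% of counts, against 4.37% to 6.26% in those 45, and its respiratory chain genes had a median of -0.17 against -0.07 to 0.06 in the other males. Promoter lncRNAs were higher in every GC quintile: from the lowest to the highest, their medians were 0.78, 0.43, 0.45, 0.35 and 0.31 in Q140 x Msh3-/- M4, 0.80, 0.60, 0.58, 0.61 and 0.55 in Q140 M1 and 0.81, 0.60, 0.56, 0.54 and 0.48 in Msh3+/- M2. The other males did not exceed 0.20 in any quintile. With Q140 x Msh3-/- M4 left out, 333 of the 737 promoter lncRNAs were above all 21.

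**Figure D5:**
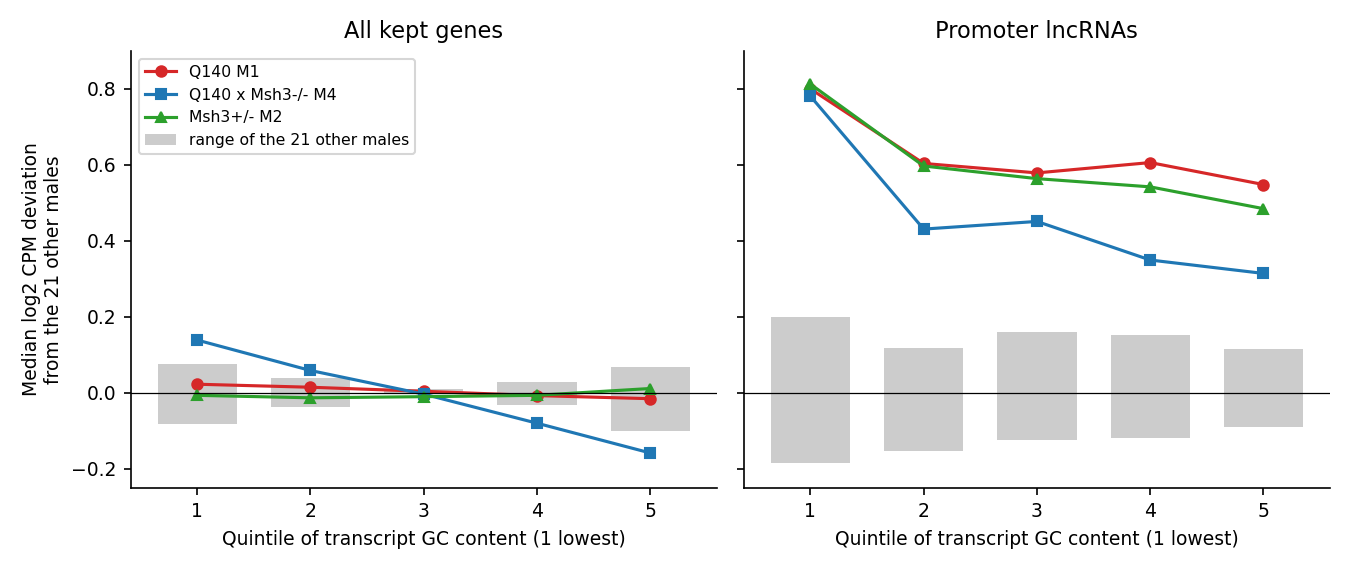
Median deviation in log2 CPM (y axis) by quintile of transcript GC content (x axis, 1 lowest) of all kept genes (left) and promoter lncRNAs (right), with lines for the 3 libraries and bars for the range of the 21 other males. Q140 x Msh3-/- M4 falls from 0.14 to -0.16 over all genes, and all 3 libraries stay above the bars for promoter lncRNAs.

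Genes differing in 1 library only were taken where the other 2 lay within the range of the other males. In Q140 M1 they included Npcd (1.99 CPM against 0.749 to 1.59) and, on the lower side, Hpn, a serine protease gene (1.17 against 1.43 to 3.75). In Q140 x Msh3-/- M4 they included Gadd45a, a stress and DNA damage response gene (9.51 CPM against 2.32 to 8.04), the mitochondrial tRNA gene mt-Tw (11.3 against 3.90 to 7.56) and, lower, Tusc5 (0.438 against 1.098 to 2.04). In Msh3+/- M2 they included Angptl4, a lipid metabolism gene (2.33 CPM against 0.486 to 1.77), and Fmo2 (9.74 against 1.96 to 8.84), while the oligodendrocyte gene Opalin was lower (3.91 against 4.80 to 11.7). These differences were each within 1 library and have no replicate check.

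Within the 21 other males, the same RNAs varied together at a smaller scale. The 8 kept genes with the highest Pearson correlation with N4bp2os over these 21 libraries were 9330151L19Rik, 2810013P06Rik, Gm29170, 2500004C02Rik, 1500015A07Rik, 2810029C07Rik, Gm16701 and Fam120aos, with r from 0.858 to 0.908. All 8 start within 1 kb of a coding start on the other strand. Of the kept genes, 3.68% were promoter lncRNAs. Protein-coding genes also started within that distance: 823 facing, 1244 head to head up to 0.5 kb and 118 from 0.5 to 1 kb. The 21 libraries share a depth range and a protocol, the 8 genes were picked from 20010 for this measure, and no p is given. Among these males Q140 x Msh3+/- M2 had the highest median deviation of the promoter lncRNAs (0.14) and Q140 M4 the lowest (-0.12).

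Each of the 3 libraries enters 1 or 2 genotype comparisons, which were fitted over all 48 libraries with edgeR's quasi-likelihood test and then again without the 3. Q140 against WT gave 2 genes at an adjusted p under 0.05 (0.01% of 20010) with the 3 libraries, both higher, and 3 (0.015%) without them. Msh3+/- against WT gave 5 (0.025%) and then 6 (0.0301%), 4 of them shared. Q140 x Msh3-/- against Q140 gave 9 (0.045%) and then 8 (0.0401%), all 8 shared. None of the called genes was a promoter lncRNA or one of the 633 genes in these 3 comparisons, under either fit. These sets were 3.68% and 3.16% of the kept genes, so with 2 to 9 calls per comparison their absence says little. DESeq2 gave 2 (0.01%), 11 (0.055%) and 7 (0.035%) in these comparisons, and edgeR without a low-count filter 2 (0.00566%), 5 (0.0141%) and 8 (0.0226%).

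Some single calls crossed the threshold with or without these libraries. Msh3 was higher by 1.48 on the log2 scale in Msh3+/- against WT (SE 0.05, edgeR adjusted p = 3.37e-29) and by 1.46 (SE 0.04, adjusted p = 1.52e-28) without the 3 libraries, and Htt differed by 0.02 and 0.04 (adjusted p = 0.805 and 0.608). In the same comparison Gtdc1 was at 0.16 (SE 0.04, edgeR adjusted p = 0.311) with them and 0.20 (SE 0.04, adjusted p = 0.0116) without. Ryr1, a calcium release channel gene, went from -0.28 (adjusted p = 0.0614) to -0.31 (adjusted p = 0.0294), and Rasgrf2, which lies near Msh3, from -0.30 (adjusted p = 0.0352) to -0.30 (adjusted p = 0.0611), all by edgeR. In Q140 x Msh3-/- against Q140, Msh3 was higher by 2.25 (SE 0.05, edgeR adjusted p = 8.21e-38), and Sbno1 was higher by 0.13 (SE 0.03, adjusted p = 0.037) with the 3 libraries and by 0.11 (adjusted p = 0.29) without. With single libraries left out, Gtdc1 and Ryr1 passed without Msh3+/- M2. Rasgrf2 did not pass without Msh3+/- M2, nor without Q140 M1 (edgeR adjusted p = 0.0502), which is in neither group of that comparison. Sbno1 did not pass without Q140 M1 or without Q140 x Msh3-/- M4. It also did not pass with all 48 libraries when no low-count filter was used (edgeR adjusted p = 0.074). In Q140 against WT the gene model Gm42756 passed without them (-0.73, SE 0.14, edgeR adjusted p = 0.036) and not with them (-0.46, adjusted p = 0.892), and Htt (0.00, adjusted p = 0.994) and Msh3 (-0.03, adjusted p = 0.975) did not pass.

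No promoter lncRNA was called in these comparisons, and the class is described by its median, without a test. The median log2 difference in Q140 against WT was 0.12 with the 3 libraries, beside 0.00 over all genes, and -0.03 without. In Msh3+/- against WT it was 0.10 and then 0.01. In Q140 x Msh3-/- against Q140, where 1 of the 3 libraries stands on each side, it was -0.04 and then 0.00, and it was 0.07 without Q140 M1 alone and -0.12 without Q140 x Msh3-/- M4 alone. These comparisons share libraries and their medians are given side by side only.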

How the data were processed

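Cortex RNA of 48 mice was measured by RNA sequencing from stranded TruSeq libraries, per the labels' protocols. The authors deposited raw read counts per Ensembl gene for 48795 genes, made with HTSeq 0.12.3, STAR 2.7.5c and SAMtools 1.10 among the tools and GRCm38 (mm10) as the build listed in the submitters' processing notes, while the annotation release and strand setting are not given in the sources used here. The deposited FPKM values hold the same genes: over 13962 abundant genes FPKM divided by counts was 1 factor per gene times 1 factor per library (coefficient of variation 1.33e-15).

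Genes were kept by filterByExpr on genotype in edgeR 4.0.16 (R 4.3.3), leaving 20010 genes with 99.963% of counts. Its groups have at least 7 libraries, so 3 libraries alone could not carry a gene past it. Log2 CPM used TMM factors and a prior count of 1, and CPM uses the same TMM-scaled totals. Principal components were centred and not scaled, with signs set so that Q140 M1 is positive. Gene positions and classes are from GENCODE M21, overlaps from bedtools 2.31.1, promoter windows from RefSeq. The quasi-likelihood fit used genotype and sex over all 48 libraries, with Benjamini-Hochberg adjusted p under 0.05, and was tested on simulated data. Over 169 within-group pairs chi-square over degrees of freedom was 4.09 to 30.7, so no library was a copy of another in its group. Pairs across groups, which include the 3 libraries with each other, were not part of that check. P-values measure the spread between these mice.

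Named genes have a mean of at least 1 CPM over the males, the 3 libraries included, and a symbol other than those of predicted genes and clones. They are the 14 with the largest smallest and the 14 with the lowest largest deviation, 4 higher and 4 lower per library where the other 2 lie within range, 2 members and the defining markers of each list described, the genes whose call differed with and without the 3 libraries (up to 5 by p), and the 8 most correlated with the leading gene. The libraries and the 43 gene lists were chosen with earlier results of these data known. The position classes and the lists for RNA decay and 3′ end processing were added after the values were seen, as were the genes named for illustration (coding neighbours, abundant lncRNAs, RNA processing genes). Alternatives were RLE factors, other low-count filters, prior counts and gene sets, log2 FPKM plus 0.1 or 1, own-genotype references, DESeq2 1.42.0, leaving out libraries and a replicate block.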

Additional observations from a re-analysis of the deposited data

Results flagged for a closer look

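Among the 4 males of each genotype, the gap from the outermost library to the next was divided by the range and compared with Dixon's 95% critical value. The component scores and promoter lncRNA values, which chose the 3 libraries or were drawn from them, were left out. Of 138 such checks on depth, GC trend, mitochondrial share and cell type lists, 4 passed the critical value, and chance alone passes about 1 in 20. The libraries that passed were Q140 x Msh3+/- M2 for hippocampal neuron markers (0.913), Q140 x Msh3+/- M3 for oligodendrocyte markers (0.855), Msh3-/- M4 for meningeal fibroblast markers (0.904) and Q140 M2 for haemoglobin genes (0.833), none of them among the 3.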

How the results depend on the processing

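The gap on the second component, from the lowest of the 3 libraries to the highest other one in SDs of the others, was 2.13. It was 1.89 to 2.19 with RLE factors, the stricter filter or a prior count of 5, and 3.60 with the 2000 most variable genes. The 3 libraries did not stand apart on the second component of the males alone (-3.13), where they did on the first (6.07), nor with protein-coding genes alone (-3.24) or without long noncoding genes (-3.06), all 3 settings but the first chosen after seeing the data. The 633 higher genes were 457 to 693 over the planned scalings and filters and 795 to 925 when each of the 3 libraries was left out, and the 264 promoter lncRNAs 261 to 333. The 55 lower genes were 37 to 62, and 177 to 294 with 1 of the 3 left out, since 2 libraries pass more easily than 3. The fit with the replicate block, numbers within sex, called 2, 5 and 10 genes in Q140 against WT, Msh3+/- against WT and Q140 x Msh3-/- against Q140, beside 2, 5 and 9. The numbers did not pair the mice: same-numbered mice of other groups correlated by -0.008 on average (-0.243 to 0.111 over 115 pairs). DESeq2 called 2, 11 and 7 genes, the 11 against 5 by edgeR in Msh3+/- against WT, and the cause was not tested. At an unadjusted p under 0.05, edgeR gave 1096, 1901 and 1814. Leaving out 1 of the 3 libraries gave 2 genes each time, then 4 to 6, and 8 to 10. Htt in Q140 against WT was at -0.00013 without a low-count filter. Depth of 36.9 M to 50.6 M limits the lowest RNAs. Medians over promoter lncRNAs were 0.34 to 0.53 as log2 of FPKM plus 0.1, beside 0.45 to 0.61, and 0.47 to 0.72 against own-genotype males. Of 144 medians (gene lists and promoter lncRNAs, per library), 32 were scored as moved against own-genotype males. In Q140 x Msh3-/- M4 the upper-layer median went from -0.18 to -0.10 and that of immediate early genes from 0.21 to 0.78. The interneuron median of Q140 M1 went from -0.10 to -0.06.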

Other observations

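The labels place the 3 libraries in wells of columns 6, 3 and 3 (Q140 M1, Q140 x Msh3-/- M4, Msh3+/- M2), columns that hold other libraries too. Column names of the deposited table share their first part between Q140 x Msh3-/- M4, Msh3-/- M4 and WT M4, and between Msh3+/- M2 and Msh3+/- M1, and the labels do not say what that part means. These 3 name-sharing libraries had median promoter lncRNA deviations of 0.02, 0.09 and 0.05 in that order. Q140 x Msh3-/- M4 was at 0.45 and Msh3+/- M2 at 0.60. The name-sharing libraries are themselves among the other males, so the range of -0.12 to 0.14 holds them by construction. Whether the shared part of the names bears on the difference was not tested. WT M4 had the highest second component score of the other males (1.66).

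The number of genes with at least 1 count was 26620 in Q140 M1, 25400 in Q140 x Msh3-/- M4 and 26220 in Msh3+/- M2, within the 25270 to 26710 of the other libraries. By quintile of mean CPM over all kept genes, 87 of 324, 133 of 317, 39 of 77, 5 of 14 and 0 of 5 promoter lncRNAs, from the lowest to the highest, lay above all 21 other males in all 3 libraries. The share over all kept genes also varied with level: 4.25%, 7.17%, 2.87%, 0.85% and 0.675% in the same quintiles.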
